A study of Homo sapiens with 4 samples.

Results

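The genes described here were EMP1, EMP2, EMP3, PMP22, PLLP, MAL2 and MYADM, which encode small membrane proteins related to EMP1 and PLLP. They were chosen by gene symbol, and all 7 were present among the 16834 genes of the deposited gene table. EMP1 and PLLP were taken because they were among the genes with the largest falls under trametinib, so their values in that comparison are given as a description only. The other 5 were taken as their relatives. RNA was sequenced from cells that the sample titles and the paper name as MIA PaCa-2, an established human line of pancreatic ductal adenocarcinoma (PDAC). The cells labelled control received neither compound, and whether they received a solvent is not given in the sources used here. The 3 treatments lasted 12 h and were neobractatin (NBT) at 1 µM, trametinib at 5 µM, and both compounds at these doses (combination). NBT is a plant compound from Garcinia bracteata, and trametinib inhibits the kinases MEK1 and MEK2. Sequencing on the BGISEQ-500 platform gave 1 library for each condition, so no difference had a replicate check and the variation between cultures was not measured. The labels give all 4 libraries the genotype WT and the cell type adenoma.

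EMP1, EMP2, EMP3 and PMP22 form the PMP22/EMP family, whose members cross the membrane 4 times and are distant relatives of the claudins of tight junctions. PLLP (plasmolipin), MAL2 and MYADM carry the MARVEL domain, a membrane-spanning domain of proteins that sort lipids and proteins into membrane domains and vesicles. PMP22 and PLLP are best known from myelin, whereas EMP1, EMP2 and MAL2 are found in many epithelia. Trametinib blocks the step from MEK to ERK, the kinase whose activity drives the ETS and AP-1 transcription factors in cells with active RAS signaling.

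The promoter sequences of EMP1 and PLLP, the lowest of the 7 genes relative to the control under trametinib, are shown because such factors act through short DNA words. The 250 bases before the RefSeq gene start (GRCh38.p14) lie at chr12:13196476-13196725 on the plus strand for EMP1 and at chr16:57284673-57284922 on the minus strand for PLLP. Capitals mark matches to TGANTCA, a wide form of the AP-1 word in which N is any base, or to CCGGAA, the word bound by ETS factors. Both words were searched on both strands, and no match overlapped another.
EMP1: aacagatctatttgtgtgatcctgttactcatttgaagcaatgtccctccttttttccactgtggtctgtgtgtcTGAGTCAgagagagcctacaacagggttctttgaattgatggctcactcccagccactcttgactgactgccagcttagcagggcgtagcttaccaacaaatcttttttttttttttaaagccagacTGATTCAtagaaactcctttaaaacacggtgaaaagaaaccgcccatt
PLLP: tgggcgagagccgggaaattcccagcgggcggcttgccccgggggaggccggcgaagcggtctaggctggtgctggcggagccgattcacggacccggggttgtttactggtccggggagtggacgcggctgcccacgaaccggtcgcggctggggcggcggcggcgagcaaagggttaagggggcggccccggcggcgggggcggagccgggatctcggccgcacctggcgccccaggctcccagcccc
EMP1 matched the wide AP-1 word as TGAGTCA at 175 to 169 and as TGATTCA at 48 to 42 bases before the gene start, and held no ETS word. PLLP held neither word in this window. The sequences also differed in base composition, with a GC content of 42.4% for EMP1 and of 76.0% for PLLP. Among 35116 windows of all RefSeq genes of the same length, 6.57% held the AP-1 word and 14.5% held the ETS word. Of the 7 genes, 6 had at least 1 window (11 windows in all), and the only other match was in a window of MYADM, with the ETS word in 2 places. A match describes letters only, and no match says nothing of a factor's binding.

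In the RefSeq annotation of GRCh38.p14, EMP1 (NCBI Gene 2012) spans chr12:13196726-13219941 and PLLP (NCBI Gene 51090) spans chr16:57256097-57284672. EMP2 (NCBI Gene 2013) lies on the same chromosome as PLLP, at chr16:10528422-10580598. EMP3 (NCBI Gene 2014) and MYADM (NCBI Gene 91663) lie on 1 chromosome, at chr19:48325552-48330553 and chr19:53865628-53876435. PMP22 (NCBI Gene 5376) is at chr17:15229779-15265326, and MAL2 (NCBI Gene 114569) is at chr8:119208363-119245673. All values below are sums over a gene's exons, since reads were assigned to transcripts.

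The libraries held from 18776247 reads in the control to 19614809 in the combination, and 3 reads corresponded to 0.160 CPM in the control. The cell line entry of the labels differs between the libraries (MIA PaCa-2, -3, -4 and -5), although their titles agree. The epithelial keratins KRT8 (1493 to 3799 TPM) and KRT18 (995 to 3142 TPM), the epithelial adhesion molecule EPCAM (209 to 242 TPM) and E-cadherin, CDH1 (51.2 to 86.9 TPM), were high in all 4 libraries. VIM, the filament protein vimentin, was at 11.5 to 26.4 TPM, and CDH2 had 0 to 3 reads. MIA PaCa-2 is generally described as rich in vimentin and poor in E-cadherin, so these values go against the label. CDKN2A (249 to 342 TPM) and MTAP (13.2 to 19.9 TPM), which were looked up after the marker values were seen and which are described as deleted in MIA PaCa-2, were also expressed. Which line the cells were was not tested, and the libraries are called here by their treatment. Over the epithelial markers measured (4 of 5), the summed level was 7269 TPM in the control library, 6106 under NBT, 3561 under trametinib and 2763 under the combination. KRT8 and KRT18 carried this sum, while EPCAM was at 242 and 209.8 TPM and CDH1 at 85.4 and 86.9 TPM in the control and trametinib libraries. The part of this in the values below was not tested. In bulk RNA, fewer cells of a type and less RNA per cell cannot be told apart.

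EMP1 was the most abundant of the 7 genes in the control and lost that place with trametinib. EMP1, a 4-pass glycoprotein of epithelial cell surfaces and junctions, had 3946 reads in the control library, 4570 under NBT, 127 under trametinib and 334 under the combination. On the scale normalized for length, its level was 134 TPM, 144 TPM, 4.21 TPM and 10.8 TPM in the same order. Both libraries without trametinib were high and both with trametinib were low. EMP1 thus went from place 1249 among 16834 genes ordered by TPM in the control to place 10086 with trametinib and 8197 with the combination. With trametinib it was 31.4-fold below the control (log2 fold change -4.97, 95% interval -5.24 to -4.72), the 11th lowest of the 16199 genes compared. This interval, as all others between 2 libraries here, is a Clopper-Pearson interval of the ratio of 2 counts and covers counting error only. PCR copies of a molecule are counted as separate reads, so it may be too narrow even for that error.

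**Figure D1:**
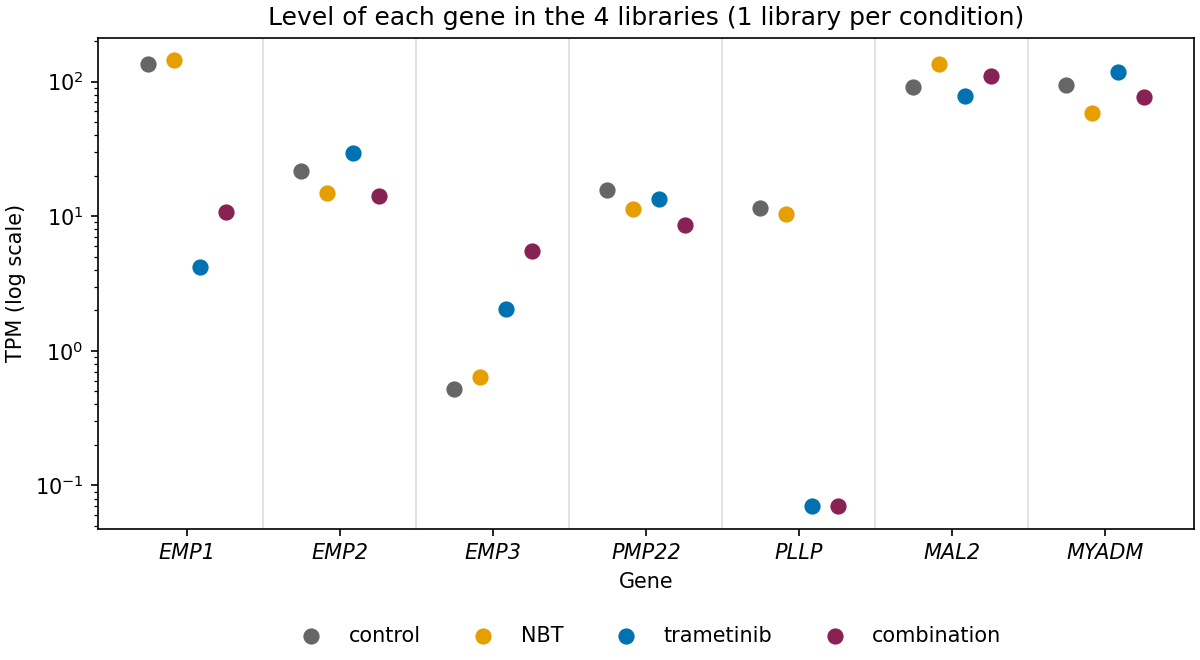
Level of each of the 7 genes (horizontal axis) in TPM on a log scale (vertical axis), 1 point per library for control, NBT, trametinib and combination. EMP1 stood at 134 and 144 TPM without trametinib and at 4.21 and 10.8 TPM with it, and PLLP went from 11.5 and 10.3 TPM to 0.07 TPM in both libraries with trametinib.

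The comparison of the combination with NBT shares no library with that of trametinib and control, and it asks the same question, what trametinib did, in cells that also received NBT. EMP1 was 13.8-fold lower there (log2 fold change -3.79, 95% interval -3.95 to -3.63). PLLP, a 4-pass MARVEL protein of myelin and of the recycling endosomes of epithelial cells, had 161 reads in the control library, 156 under NBT and 1 in each of the libraries with trametinib. Both libraries with trametinib stood at or under the limit of 3 reads that a count of 0 would still allow. The ratio to NBT in the combination was 157-fold lower, with an interval of 27.8- to 6257-fold that a single read leaves wide. A gene was taken as changed when its adjusted value in an exact binomial test of the 2 libraries' counts was at most 0.05 and its log2 fold change was at least 1 in size, the limits of the study's methods. This compares 2 libraries and not 2 conditions, and no p-value is given. In the combination against NBT, 2 of the 7 genes fell (EMP1 and PLLP) where 2.16% of the 16253 genes compared did, and 1 rose (EMP3) where 2.38% did. With an assumed coefficient of variation of 0.4, PLLP alone of these 3 was called. EMP1 and PLLP were chosen for their falls with trametinib in other libraries, so the count of falls says nothing of the 7 genes as a group.

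In the comparison of trametinib with the control, on which the pair was chosen, the count of PLLP was 162-fold lower per read sequenced (95% interval 28.8- to 6457-fold). Its log2 fold change, for which 0.5 reads were added to each count, was -6.76, a smaller change than that ratio because of the added reads, and the 3rd lowest value of all. EMP1 and PLLP lay past the limits on the lower side, as 2.28% of all genes did, and 3.85% lay past them on the higher side. The pair was chosen on this comparison, so nothing is read from its count. EMP2, EMP3, PMP22, MAL2 and MYADM were not called. For EMP3, with 12 against 3 reads, the log2 fold change of 1.82 was past its limit but the adjusted value was not. The direction of these 5 differed, and the largest of their log2 fold changes that rested on more than 100 reads was 0.47, for EMP2.

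**Figure D2:**
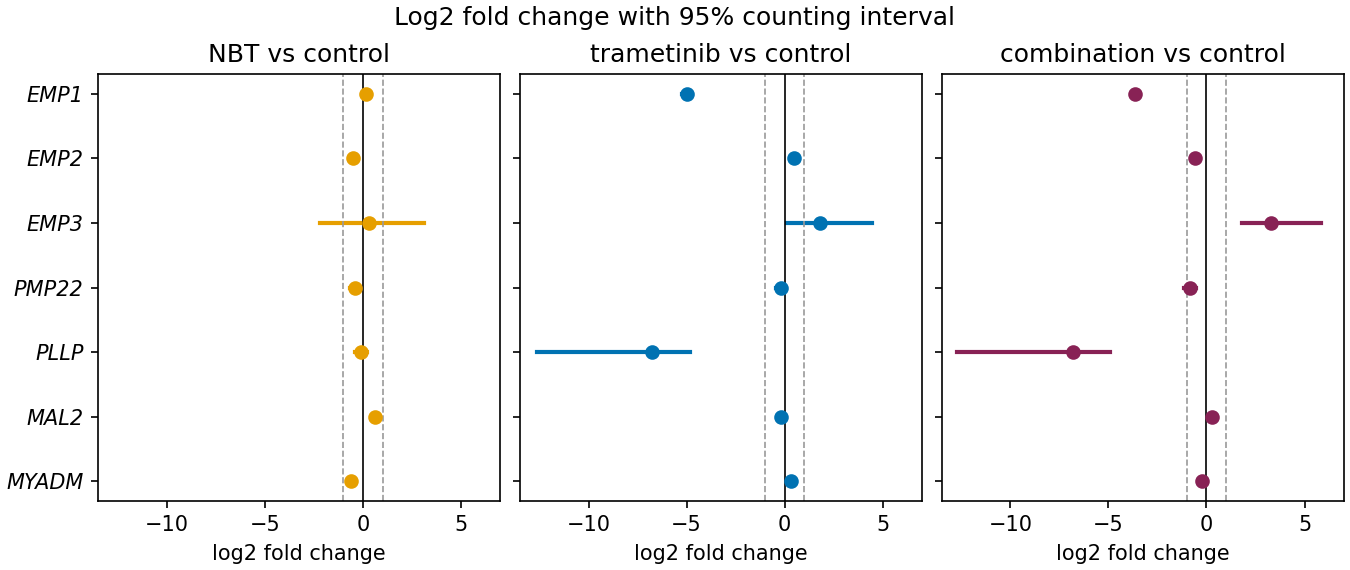
Log2 fold change against the control (horizontal axis) of each of the 7 genes (vertical axis) for NBT, for trametinib and for the combination. Points are the values, bars the 95% counting intervals and broken lines a log2 fold change of 1 in either direction. EMP1 and PLLP lie far to the left with trametinib (-4.97 and -6.76) and with the combination (-3.62 and -6.80) and near 0 with NBT (0.16 and -0.10).

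NBT by itself left all 7 genes inside the limits, as it did most genes, since 1.64% of the 15891 genes compared were higher and 1.13% lower. EMP1 was higher by 0.16 on the log2 scale (95% interval 0.10 to 0.22) and PLLP differed by -0.10 (-0.42 to 0.23), an interval that includes 0. The largest values of NBT were those of MAL2, at 0.63 (0.56 to 0.70), and of MYADM, at -0.61 (-0.69 to -0.52). EMP2 and PMP22 had log2 fold changes of -0.48 and -0.40 with NBT. Their counting intervals (-0.62 to -0.35 and -0.68 to -0.13) did not reach 0.

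In the combination against the control, EMP1 fell 12.3-fold (log2 fold change -3.62, 95% interval -3.79 to -3.46) and EMP3 rose. PLLP fell 168-fold as a ratio of counts (95% interval 29.8- to 6684-fold), with a log2 fold change of -6.80 once 0.5 reads were added. These 2 falls stood beside 3.83% of 16233 genes, and the 1 rise beside 4.90%. EMP1 and PLLP were chosen for their falls with trametinib against the same control library, so nothing is read from their count here. This comparison shares its control library with those of NBT and trametinib. EMP1 was less reduced by the combination than by trametinib, at 334 against 127 reads, a rise of 2.54-fold (log2 fold change 1.34, 95% interval 1.05 to 1.65). This call was lost when cultures were assumed to vary with a coefficient of 0.2. EMP1 was chosen for its low value in the trametinib library, which favours a rise here, so this rise is a description. No fold was computed for PLLP between these libraries, which held 1 read each.

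The combination was also set against the sum of the log2 fold changes of the single compounds, which is the value expected if each multiplied the level independently. For EMP1 the sum was -4.80 and the measured value -3.62, a departure of 1.18 (95% interval 0.88 to 1.48). EMP1 was chosen for its low value with trametinib, which makes up most of the sum and favours an upward departure, so this value is a description. Departures of at least 1 upward were seen for 0.897% of the 11367 genes with at least 50 reads in a library, and downward for 1.43%. EMP2 departed by -0.56 (-0.75 to -0.38) in the other direction. MYADM departed by 0.03 (-0.08 to 0.15), MAL2 by -0.12 (-0.23 to -0.01) and PMP22 by -0.23 (-0.63 to 0.18). PLLP and EMP3 had too few reads in a library for such a value. All of these values share the control library.

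Within the PMP22/EMP family, EMP2 took the first place from EMP1 in both libraries with trametinib. EMP2, which is known for binding integrins and for its part in caveolae, had 1053 reads in the control library, 779 under NBT, 1474 under trametinib and 739 under the combination. Its level was 21.7 TPM, 14.8 TPM, 29.6 TPM and 14.2 TPM. The trametinib library was the highest and the combination the lowest. EMP2 was higher by 0.47 on the log2 scale with trametinib (95% interval 0.36 to 0.59), within the limits, and differed by -0.09 (-0.24 to 0.06) when the combination was set against NBT. It fell 2.06-fold in the combination against trametinib (log2 fold change -1.05, 95% interval -1.18 to -0.92). In that comparison 3.73% of the 16345 genes compared were lower and 2.64% higher, and of the 7 genes EMP2 was lower and EMP1 and EMP3 were higher. EMP1 was chosen on the trametinib library, so nothing is read from its part in this count. The fold of EMP2 lies close to the limit of 1, and its call too was lost at an assumed coefficient of 0.2.

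EMP3, a relative found mostly in fibroblasts and blood cells, was at the edge of detection in the control. The control library held 3 reads, that of NBT 4, that of trametinib 12 and that of the combination 35, or 0.52, 0.64, 2.03 and 5.50 TPM. The libraries with trametinib were the higher ones. Against the control, the ratio was 3.96 with trametinib (95% interval 1.07 to 21.9), past the fold limit but not that of the adjusted value. With the combination it was 11.2 (3.52 to 56.8), past both. Against NBT the ratio of the combination was 8.67 (3.10 to 33.6), and against trametinib it was 2.82 (1.43 to 5.96), also past the limits. The last of these calls was lost at an assumed coefficient of 0.2, and the other calls of EMP3 at 0.4. The mesenchymal marker VIM had 202, 249, 425 and 500 reads in the same order of libraries, whereas ZEB1 of the same list had 84, 168, 64 and 134. CD3E, a marker of T cells, had 0, 0, 55 and 29. The leukocyte marker PTPRC was at 8 to 17 reads and the fibroblast marker COL1A1 at 27 to 98 reads. The summed level of the 3 leukocyte markers measured was 0.76 TPM in the control library, 1.09 under NBT, 5.21 under trametinib and 3.26 under the combination, and that of the 3 fibroblast markers was 0.86, 0.51, 1.90 and 0.99 TPM. The part of such cells in the EMP3 values was not tested.

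PMP22, the protein of compact myelin in Schwann cells that is also found at epithelial junctions, was low in every library and lowest with the combination. The reads numbered 250 in the control library, 196 under NBT, 221 under trametinib and 148 under the combination (15.6, 11.3, 13.4 and 8.59 TPM). No comparison took it past the limits, and the largest difference was -0.82 (95% interval -1.12 to -0.52) for the combination against the control. The Schwann cell factor SOX10 had at most 2 reads in any library. MBP, which has transcripts outside myelin, had 232 to 725 reads.

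The summed level of EMP1, EMP2, EMP3 and PMP22 was 172 TPM in the control library, 171 under NBT, 49.2 under trametinib and 39.1 under the combination. EMP1 made up 78.0%, 84.4%, 8.56% and 27.6% of that sum. EMP2 made up 12.6%, 8.65%, 60.1% and 36.3%. Without EMP1 the sum of the other 3 was 37.8 TPM, 26.7 TPM, 45.0 TPM and 28.3 TPM, so it was lowest in the libraries with NBT. PMP22 held 9.05%, 6.59%, 27.2% and 22.0% of the family, and EMP3 0.302%, 0.374%, 4.13% and 14.1%. The ratio of EMP1 to EMP2 in TPM went from 6.19 in the control and 9.76 with NBT to 0.142 with trametinib and 0.760 with the combination.

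**Figure D3:**
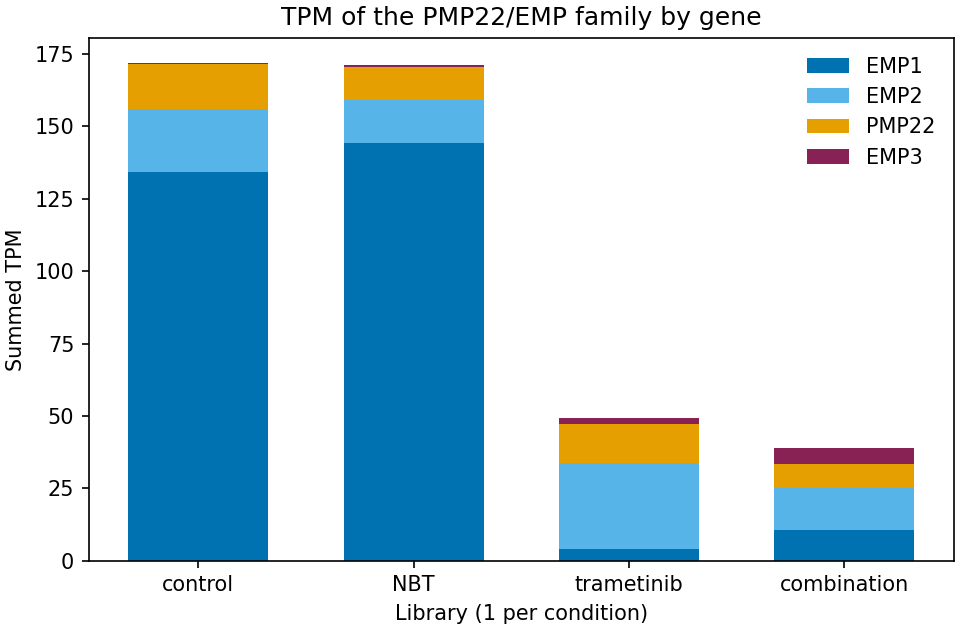
Summed TPM of the PMP22/EMP family (vertical axis) in each library (horizontal axis), with each stacked bar divided by gene. The bars of the control and of NBT (172 and 171 TPM) consist mostly of EMP1, and those of trametinib and of the combination (49.2 and 39.1 TPM) mostly of EMP2, PMP22 and EMP3 with a smaller part of EMP1.

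Of the MARVEL genes, MAL2 and MYADM were abundant in every library and moved in opposite directions with NBT. MAL2, a protein of lipid rafts needed for transcytosis to the apical surface, had 2450 reads in the control library, 3925 under NBT, 2139 under trametinib and 3153 under the combination. MYADM, which carries a pair of MARVEL domains and organizes ordered membrane at the cell surface, had 2736, 1857, 3500 and 2432 reads. The libraries with NBT were the higher ones for MAL2 and the lower ones for MYADM. The TPM of MAL2 (91.7, 136, 78.3 and 110) and of MYADM (93.6, 58.6, 117 and 77.4) gave a ratio of MAL2 to MYADM of 0.979 in the control library, 2.31 under NBT, 0.670 under trametinib and 1.42 under the combination. Adding NBT to trametinib gave log2 fold changes of 0.51 (95% interval 0.43 to 0.59) for MAL2 and -0.57 (-0.65 to -0.50) for MYADM. Trametinib gave -0.21 (-0.29 to -0.12) for MAL2 and 0.34 (0.27 to 0.41) for MYADM without NBT, and -0.33 (-0.40 to -0.26) and 0.38 (0.29 to 0.46) with it. All of these lay inside the limits.

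In TPM, the order of the 7 genes was EMP1, MYADM, MAL2, EMP2, PMP22, PLLP and EMP3 in the control. With NBT, MAL2 and MYADM changed places, and the rest kept theirs. With trametinib the order was MYADM, MAL2, EMP2, PMP22, EMP1, EMP3 and PLLP, and with the combination it was MAL2, MYADM, EMP2, EMP1, PMP22, EMP3 and PLLP. Neighbours such as MYADM and MAL2 in the control (93.6 and 91.7 TPM), PMP22 and PLLP with NBT (11.3 and 10.3 TPM) or EMP1 and PMP22 with the combination (10.8 and 8.59 TPM) lay close together, and their spread between cultures is not known.

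**Figure D4:**
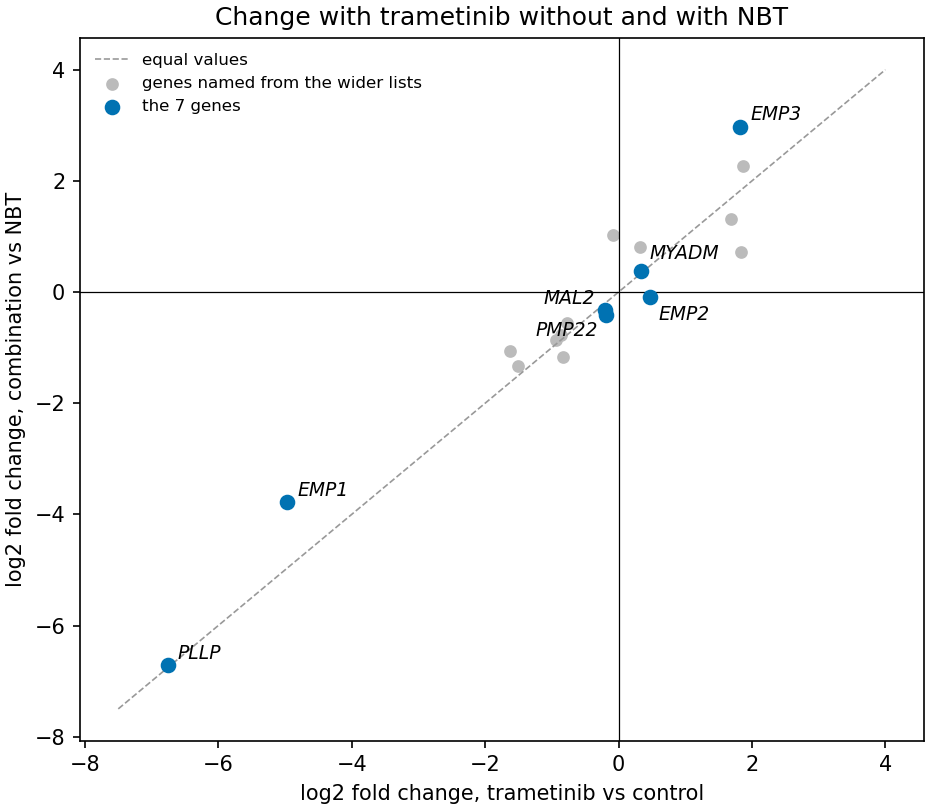
Log2 fold change of trametinib against the control (horizontal axis) and of the combination against NBT (vertical axis), which share no library. Blue points are the 7 genes, grey points the genes named below from the wider lists, and the broken line marks equal values. PLLP lies on the line, EMP1 above it (-4.97 and -3.79) and EMP2 below it (0.47 and -0.09). EMP1 and PLLP were chosen for low values on the horizontal axis.

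The deposited transcript table split EMP1 over 2 RefSeq transcripts. NM_001423.3 held 611, 657, 18.7 and 41.0 estimated reads in the control, NBT, trametinib and combination libraries, which was 15.5%, 14.4%, 14.8% and 12.3% of the gene. XM_024448877.1 held the rest, 3335, 3913, 108 and 293 reads. Both transcripts were thus low with trametinib, and the split between them moved by a few percent. For EMP2, NM_001424.6 held 74.8%, 77.2%, 70.5% and 64.8%, with the remainder on XM_006720864.3. The reads of EMP3 were placed on NM_001313905.1 in the first 3 libraries and on NM_001425.3 (29.6 reads) and XM_011526605.3 (5.38 reads) in the combination, a change of transcript that rests on 35 reads. MAL2 lay mostly on NM_052886.3, and its other transcript XM_011516807.2 had 59.1, 110, 168 and 150 reads. PLLP and PMP22 had 1 transcript each. MYADM had 12, of which 6 were at 0 in some library. The gene counts of EMP1, EMP2 and MYADM were not whole in any of the 4 libraries, and those of the other 4 genes were whole. Whether reads of EMP1, EMP2 and MYADM were shared with other genes was not tested.

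The genes whose changes against the control were most like those of EMP1 were compared over 3 log2 fold changes (NBT, trametinib, combination) among 10661 genes with at least 100 reads in a library. The nearest were ETV5, an ETS factor, at a distance of 1.07, DUSP4, a phosphatase of ERK, at 1.27, DOK7 at 1.37, the receptor GPR3 at 1.37 and the ephrin receptor EPHA2 at 1.49. Nearest to PLLP were DUSP6 at 2.86, EMP1 at 3.66, ETV5 at 3.76, TNS4 at 3.88 and GPR3 at 4.04. GPR3 had 155, 128, 11 and 9 reads. DOK7 had 245, 195, 4 and 40 reads. All of these genes were named for values near those of EMP1 or PLLP, so a shared pattern is not a further result. The distances rest on 4 libraries and on a shared control. EMP1 and PLLP were both chosen for low values with trametinib, which enter the distance, so their nearness is a description. The values of PLLP with trametinib and with the combination rest on 1 read in each library. With 5 reads added they were -4.80 and -4.83, and the distances were not recomputed. The 10 genes listed as output of MAPK signaling (ETV5, DUSP4, DUSP6 and EPHA2 among them) were all lower past the limits with trametinib. Their median log2 fold change was -3.43, and 2.28% of all genes were lower there. All 10 were lower again when the combination was set against NBT, with a median of -3.18, where 2.16% of all genes were. The list names genes of the pathway that trametinib blocks, so nothing is read from these counts for EMP1 or PLLP.

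The wider lists were made of gene families and of genes listed as partners, and they were chosen with earlier results of these data known. Of 30 further relatives of PMP22 and the claudins, 21 were in the table and compared, and with trametinib 2 were higher past the limits and none lower, with a median log2 fold change of 0.27 against 0.08 over all genes. Of all genes 3.85% were higher and 2.28% lower. With the combination again 2 were higher and none lower, where 4.90% and 3.83% of all genes were, with a median of 0.51 against 0.05. CLDN9, a tight junction claudin, had 62, 43, 202 and 108 reads in the order of the libraries and rose with trametinib by 1.68 (95% interval 1.27 to 2.13). CLDN4, a claudin that seals epithelial tight junctions, had 3079, 4257, 2935 and 8707 reads and rose by 1.44 on the log2 scale with the combination, against log2 fold changes of 0.42 with NBT and -0.08 with trametinib that lay inside the limits. Its library with both compounds was the highest by far.

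Of 23 MARVEL relatives, 20 were in the table and 19 compared. With trametinib 2 were higher and none lower, beside 3.85% and 2.28% of all genes, with a median of 0.19 against 0.08. With the combination 2 were higher and 2 lower, beside 4.90% and 3.83%, with a median of -0.06 against 0.05. SYNGR3, a protein of synaptic vesicles, had 27, 43, 101 and 211 reads and rose by 1.87 (95% interval 1.27 to 2.56) with trametinib and by 2.88 (2.32 to 3.54) with the combination. OCLN, occludin of tight junctions, had 403, 498, 509 and 881 reads and rose by 1.06 (0.89 to 1.24) with the combination. SYNGR1, of the same family as SYNGR3, had 311, 212, 183 and 145 reads and fell by 1.16 on the log2 scale with the combination. No MARVEL relative of that list fell past the limits with trametinib, which for 19 genes lies near the 2.28% of all genes. PLLP was chosen for its fall, so it is not set against this list.

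The tetraspanins are a separate family of 4-pass proteins that gather integrins and other receptors. Of 33 listed, 28 were in the table, and 26 were compared with trametinib and 27 with the combination. With trametinib 2 were higher and 1 lower (median 0.07 against 0.08 over all genes), and with the combination 1 was higher and 3 lower (median -0.03 against 0.05). Counts this small lie near the shares of all genes, which were 3.85% and 2.28% in the former comparison and 4.90% and 3.83% in the latter. CD82, a tetraspanin known as a suppressor of metastasis, had 1739, 1209, 617 and 485 reads and fell by 1.51 on the log2 scale with trametinib and by 1.90 with the combination. TSPAN4 had 1192, 908, 678 and 406 reads and TSPAN1 had 197, 135, 103 and 75, and they fell by 1.62 and 1.45 with the combination. These 3 were named because they fell past the limits, so a control above the combination in each is not a further result.

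Of the 13 genes listed as partners of these proteins, all 13 were compared, and 1 was higher and 1 lower with trametinib and with the combination, counts too small to set apart from the same shares of all genes. ITGA6, the laminin-binding integrin α6, had 6079, 7366, 1993 and 3563 reads and fell by 1.62 (95% interval -1.70 to -1.55) with trametinib. With the combination it differed from the control by -0.83 (-0.89 to -0.77). The combination against trametinib gave 0.79, inside the limits. ITGA6 was named for its fall with trametinib, which favours such a rise. ITGB4, its partner in hemidesmosomes, had 17404, 11756, 9639 and 6935 reads and fell by 1.39 on the log2 scale with the combination. MUC1, an epithelial mucin, had 63, 83, 229 and 138 reads and rose by 1.84 with trametinib and by 1.06 with the combination. No gene of these 4 wider lists passed the limits with NBT, where 1.64% of all genes were higher and 1.13% lower, so that few calls could have been met in lists of this size.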

How the data were processed

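RNA of 4 cultures (control, NBT, trametinib, combination; 1 library each) was sequenced on the BGISEQ-500 platform. For each gene and RefSeq transcript the authors deposited an estimated count, made by dividing reads among the transcripts they match, with no normalization. Beside it the authors deposited TPM, which adjusts for length and gives every library the same sum, and FPKM, which adjusts for length and for the fragments mapped. The submitters' processing notes name Bowtie2 2.2.5, RSEM 1.2.8 and hg38, and the paper names FPKM and a Poisson test of 2 libraries. The labels describe depletion of bacterial ribosomal RNA, which the paper does not mention. Whether counting used strand is not given in the sources used here.

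Libraries were grouped by their titles and treatments. The estimated counts as deposited were rounded, and each library was scaled to its total. Log2 fold changes were computed with 0.5 reads added. Genes with at least 1 read in either library were compared with an exact two-sided binomial test, adjusted by Benjamini-Hochberg. A change required an adjusted value of at most 0.05 and a log2 fold change of at least 1 in size. Intervals are 95% Clopper-Pearson intervals, which hold no error beyond that of counting. With 1 to 3 reads in a library, a ratio is given with its interval, and none where both had 3 reads or fewer. Departures from additivity combined the counting variances of 4 libraries. Fold ratios use the counts with no reads added, and intervals are those of the same ratios. Levels of different genes were compared in TPM only. The calls and the intervals of ratios were tested on simulated counts that held no variation between cultures. Departures from additivity, likeness, shares and promoter matches were not tested in this way.

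The 7 genes, the wider lists and the likeness rule were chosen with earlier results of these data known. Genes named from each wider list were up to 4 with the largest absolute log2 fold change in trametinib or combination against control, among those past the limits with at least 100 reads in the higher library. As most alike, the 5 genes with the smallest Euclidean distance over 3 log2 fold changes were named. CDKN2A and MTAP were added after values were seen. Promoter windows came from RefSeq (GRCh38.p14). Protein sequences, MAL2's window, and genes of the lists outside the table were not analysed here, and 1 marker gene is not reported here.

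Alternatives were edgeR's TMM factors, DESeq2's median-of-ratios factors, TPM with a pseudocount of 0.1, 5 reads added, summed transcript counts, a minimum of 10 reads, a log2 limit of 2, a negative binomial exact test (edgeR) assuming a coefficient of variation of 0.2 or 0.4, and FPKM for family shares. Python 3.11.15 (numpy 2.4.6, pandas 2.3.3, scipy 1.17.1, matplotlib 3.10.9) and R 4.3.3 (edgeR 4.0.16, DESeq2 1.42.0) were used.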

Additional observations from a re-analysis of the deposited data

Results flagged for a closer look

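EMP2 moved in different directions with trametinib in the absence and the presence of NBT. Its log2 fold change was 0.47 (95% counting interval 0.36 to 0.59) for trametinib against the control and -0.089 (-0.24 to 0.06) for the combination against NBT. The second interval includes 0, each comparison rests on 1 library per condition, and the difference between them was not tested.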

How the results depend on the processing

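The members past the limits were the same genes in all 5 comparisons under TMM, median-of-ratios scaling, TPM, 5 reads added, summed transcript counts and a minimum of 10 reads. Of 170 recomputed log2 fold changes of the 7 genes, 3 left their counting interval, all of PLLP with 5 reads added (-4.80 with trametinib and -4.83 with the combination against control, -4.75 with the combination against NBT), and 0 changed sign. The median of the PMP22 and claudin relatives with the combination went from 0.51 to 0.40 with TPM and 0.37 with 5 reads added. In the order NBT, trametinib and combination against control, combination against NBT and combination against trametinib, genes past the limits numbered 440, 993, 1417, 738 and 1041. Where cultures were assumed to vary with a coefficient of 0.2 they numbered 69, 365, 547, 204 and 302, with 0.4 they numbered 4, 22, 51, 13 and 14, and with a log2 limit of 2 they numbered 131, 371, 433, 269 and 275. Of the 3 members past the limits in the combination against trametinib (EMP1, EMP2 and EMP3), 0 remained with each of these 3 settings. At 0.4, 1 member (PLLP) of 3 remained in the combination against NBT, and EMP1 and PLLP, 2 of 3, in the combination against the control. A wider assumed spread or a higher limit lowers such counts by construction. Departures from additivity stayed within their counting intervals, and shares of the PMP22/EMP family were recomputed with FPKM. Leaving out a library was not possible with 1 per condition. No paired analysis was possible because each condition had 1 library. Depth limits PLLP with trametinib (1 read) and EMP3 in the control (3 reads).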
